A study of Mus musculus with 8 samples.

Results

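The genes described here are 10 members of the interleukin-6 (IL-6) cytokine system: the ligands Il6, Il11, Lif and Osm, the receptor chains Il6ra, Il6st, Lifr and Osmr, the transcription factor Stat3 and its feedback inhibitor Socs3. They were chosen by symbol, and each matched 1 of the 23235 rows of the authors' deposited table. All 10 were among the 15783 rows that the authors' comparison had tested. Poly(A) RNA was sequenced from tongue squamous cell carcinomas induced in female C57BL/6 mice with the quinoline carcinogen 4-nitroquinoline 1-oxide (4-NQO; 3 samples) and from normal tongues of female C57BL/6 mice that had not received it (5 samples). No dose, duration, age or further allele is given in the labels, nor is it stated that the samples come from different animals. The table holds 1 FPKM value per gene for each group (sequenced fragments normalised for transcript length and library size), so the value of each sample, the spread between samples and the depth are unknown. The q-value is the adjusted p-value of the authors' own comparison, and a gene is described as having risen or fallen only where it was under 0.05.

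Cytokines of this family share a signal-transducing receptor chain, gp130, which is encoded by Il6st. IL-6 and IL-11 first bind a private receptor, whereas LIF and oncostatin M bring gp130 together with the LIF receptor or the oncostatin M receptor. The assembled receptors activate Janus kinases, which phosphorylate STAT3, and STAT3 then induces Socs3, whose product binds gp130 and the kinases and shuts the signal off. In stratified epithelium the pathway is known for its part in wound repair, inflammation and squamous carcinoma.

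The promoters of 3 members are shown because Il6 and Socs3 rose, Lif came next in the comparison, and together they hold each motif searched. Osm also rose, but no promoter entry was available for it. Each sequence is the 250 bases before the annotated start, 5′ to 3′ on the gene's own strand, taken from RefSeq on GRCm38.p6 (chr5:30012864-30013113, plus strand, for Il6; chr11:4257318-4257567, plus strand, for Lif; chr11:117969367-117969616, minus strand, for Socs3). Capitals mark matches to a STAT motif (TTCNNNGAA), an NF-kB motif (GGGANNTTC) or an AP-1 motif (TGANTCA), searched on both strands.
Il6: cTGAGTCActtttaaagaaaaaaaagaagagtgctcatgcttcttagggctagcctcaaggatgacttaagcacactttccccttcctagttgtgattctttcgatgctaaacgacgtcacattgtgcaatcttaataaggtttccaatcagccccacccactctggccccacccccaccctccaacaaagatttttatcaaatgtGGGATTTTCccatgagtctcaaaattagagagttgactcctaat
Lif: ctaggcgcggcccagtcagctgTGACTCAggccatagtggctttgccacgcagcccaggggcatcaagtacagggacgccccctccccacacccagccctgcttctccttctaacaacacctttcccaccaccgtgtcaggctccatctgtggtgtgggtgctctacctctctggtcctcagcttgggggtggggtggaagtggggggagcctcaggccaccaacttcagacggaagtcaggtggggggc
Socs3: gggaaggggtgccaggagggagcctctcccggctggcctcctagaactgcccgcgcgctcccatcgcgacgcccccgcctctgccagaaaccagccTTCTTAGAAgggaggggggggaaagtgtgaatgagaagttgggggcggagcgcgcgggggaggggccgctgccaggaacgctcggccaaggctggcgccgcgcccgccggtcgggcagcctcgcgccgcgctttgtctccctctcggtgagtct

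The Socs3 promoter held the STAT match, TTCTTAGAA, 154 to 146 bases before the start. It was the only STAT match among the 11 promoters of the 9 members with an entry, and 7.02% of all 32851 promoters of this length held such a match. The Il6 promoter held the NF-kB match, GGGATTTTC, 44 to 36 bases before the start, a motif found in 3.23% of all promoters. AP-1 matches lay in the promoters of Il6, Lif and 1 of the 2 promoters of Il11, against 6.75% of all promoters. No match overlapped another, and none shows that a factor binds there.

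The ligand genes Il6 and Osm and the inhibitor gene Socs3 rose in the carcinomas, while the receptor chains and Stat3 were not called. In the authors' deposited table, 3 of the 10 members rose and none fell, and at a stricter deposited q of 0.01 none of the 3 would have passed. Over all tested genes 6.26% were called in either direction and 3.07% were called higher. Calls over all tested genes numbered 571 at a deposited q under 0.01, against 988 at 0.05. The median log2 fold change of the 10 members was 0.58, beside −0.04 over the 15686 tested genes with a finite fold change. A positive fold change was seen for 7 of the 10 members and for 47.6% of those tested genes. A difference of at least 4-fold, with no test, was found for 3 members (Il6, Osm and Lif) and for 6.44% of the tested genes with a finite fold change.

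Among the ligands, Il6 had the largest fold change without a pseudocount, whereas Lif had the largest difference in FPKM, 1.48 against 1.25 for Il6, and the largest fold change with a pseudocount of 1 FPKM. Il6, the inflammatory cytokine that names the family, stood at 1.30 FPKM in carcinomas and 0.0517 FPKM in normal tongue in the authors' deposited table. This was a 25.3-fold higher level, a log2 fold change of 4.66 with a standard error (SE) of 1.26 and a 95% interval of 2.18 to 7.13 (deposited q = 0.012). Of the 15686 tested genes with a finite fold change, only 0.587% had a lower level than Il6 in normal tongue. The fold change of Il6 exceeded that of 99.5% of them. The 97 tested genes listed at 0 in a group were left out of these shares and of the percentiles below. The SE of Il6 was the largest of the 10 members, and its fold rests on the very low normal value: with a pseudocount of 1 FPKM its log2 fold change was 1.13, and those of Osm and Lif were 0.91 and 1.15. Osm, oncostatin M, a cytokine made mainly by myeloid cells and T cells, stood at 1.11 FPKM in carcinomas and 0.121 FPKM in normal tongue in the authors' deposited table. It rose 9.13-fold, with a log2 fold change of 3.19 ± 0.89 (SE; deposited q = 0.0179).

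Lif, leukaemia inhibitory factor, had nearly the same fold as Osm but missed the threshold. The authors' deposited table lists Lif at 1.69 FPKM in carcinomas and 0.215 FPKM in normal tongue, a log2 fold change of 2.98 ± 0.95 (SE) with q = 0.0641. Its 95% interval ran from 1.11 to 4.84 on the log2 scale, and it passed when the deposited p-values were adjusted by the Benjamini-Hochberg method over all tested rows (adjusted p = 0.0259). At that SE, only a difference of at least 8.37-fold would have been called by the deposited q, and Lif differed 7.87-fold. Il11, interleukin-11, was listed at 1.26 FPKM in carcinomas and 0.661 FPKM in normal tongue in the authors' deposited table (log2 fold change 0.93 ± 0.73, q = 1.00). The interval for Il11, −0.51 to 2.36, includes no change and reaches a 5.15-fold higher level.

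In normal tongue Il11 was the most abundant of the 4 ligands and Il6 the least, with a 12.8-fold range between them. In carcinomas the 4 lay within a 1.53-fold range, in the order Lif, Il6, Il11 and Osm. The log2 fold change of Il6 exceeded that of Il11 by 3.73 ± 1.46 (SE, combining the 2 errors as if independent; 95% interval 0.87 to 6.59). For Osm and Lif against Il11 the intervals of the difference, −0.00332 to 4.53 and −0.31 to 4.41, included 0. Summed over the 4 ligands, the level was 5.36 FPKM in carcinomas and 1.05 FPKM in normal tongue. All 4 thus remained low: the carcinoma values lay between the 19.5th and the 25.4th percentile of tested genes with a finite fold change. Of the 1446 such genes with 1 to 2 FPKM in their higher group, 4.08% were called in either direction and 2.97% were called higher.

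**Figure D1:**
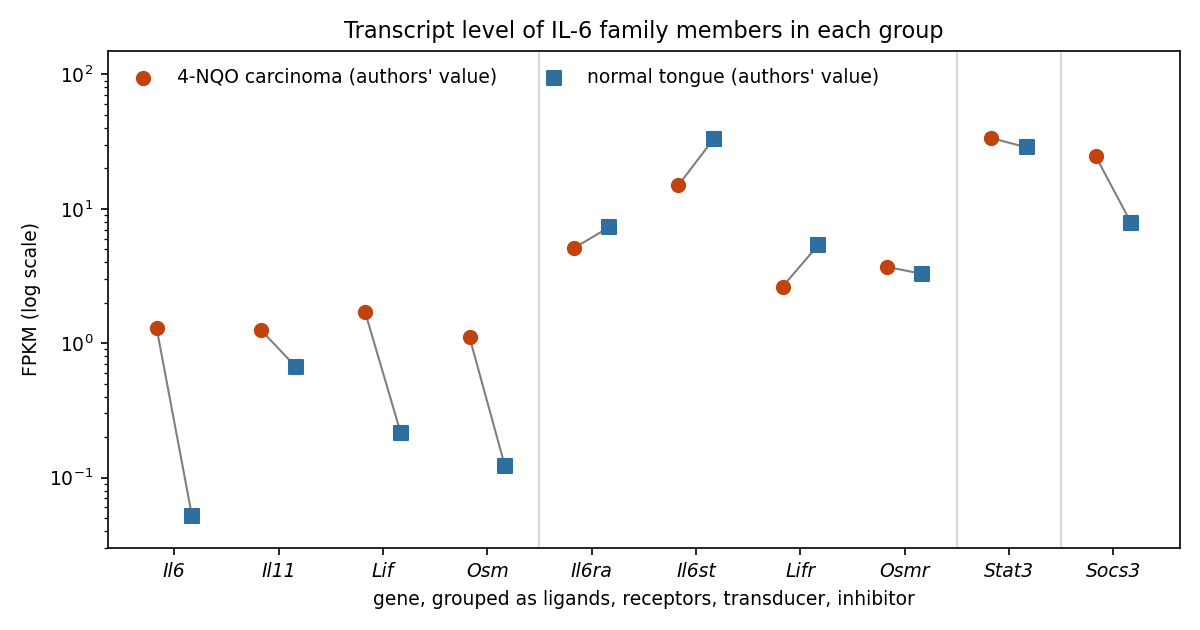
FPKM (log axis) of the 10 members in 4-NQO carcinomas (circles) and normal tongue (squares), with 1 value per group and no error available. The 4 ligands lie between 1.11 and 1.69 FPKM in carcinomas and between 0.0517 and 0.661 FPKM in normal tongue, while Stat3 is at 33.6 FPKM in carcinomas and 28.7 FPKM in normal tongue.

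None of the 4 receptor chains passed the threshold, and 3 of them had negative fold changes. Il6st, the shared chain gp130, was listed at 14.9 FPKM in carcinomas and 33.1 FPKM in normal tongue in the authors' deposited table (log2 fold change −1.15 ± 0.46, q = 0.250). Its 95% interval, −2.05 to −0.26, lay below 0, although the deposited q did not pass. Lifr, the LIF receptor, had 2.64 FPKM in carcinomas and 5.35 FPKM in normal tongue in the authors' deposited table (−1.02 ± 0.60, q = 0.786). Il6ra, the private IL-6 receptor, had 5.10 FPKM in carcinomas and 7.30 FPKM in normal tongue (−0.52 ± 0.46, q = 1.00 in the authors' deposited table). Osmr, the oncostatin M receptor, was at 3.69 FPKM in carcinomas and 3.28 FPKM in normal tongue in the authors' deposited table (0.17 ± 0.46, q = 1.00). Apart from Lifr, each receptor had an SE that allowed a call only from about 2.77- to 2.78-fold upwards, so smaller shifts were not detectable. The table has 1 row per gene, so soluble receptor forms are not separated in it.

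Among the pairs of receptor chains compared, only Osmr and Il6st had an interval of the difference in log2 fold change that excluded 0. Neither of these genes was called, and the intervals were not adjusted for the number of pairs. Osmr transcripts were 1.401 times those of Lifr in carcinomas and 0.614 times in normal tongue. The difference between their log2 fold changes was 1.19 ± 0.75 (95% interval −0.29 to 2.67), which includes 0. Il6st exceeded Osmr 4.04-fold in carcinomas and 10.1-fold in normal tongue, and here the difference in log2 fold change, Osmr minus Il6st, was 1.32 ± 0.65 (0.05 to 2.59). Il6st was the most abundant of these 4 chains in both groups. It exceeded Il6ra 2.93-fold in carcinomas and 4.54-fold in normal tongue, with an interval for the difference of −0.63 to 1.90. Il6st exceeded Lifr 5.66-fold in carcinomas and 6.20-fold in normal tongue, with an interval of −1.34 to 1.61. The summed level of the 4 chains was 26.4 FPKM in carcinomas and 49.1 FPKM in normal tongue.

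Fold changes of ligand and receptor differed in the 3 matched pairs compared. Relative to Il6ra, the log2 fold change of Il6 was higher by 5.18 ± 1.34 (95% interval 2.55 to 7.81). Osm exceeded Osmr by 3.02 ± 1.01 (1.05 to 4.99), and Lif exceeded Lifr by 4.00 ± 1.12 (1.79 to 6.20). Receptor transcripts nevertheless outnumbered those of their ligands per length in both groups. Il6ra was 3.91 times as abundant as Il6 in carcinomas and 141 times in normal tongue, and Osmr was 3.34 times as abundant as Osm in carcinomas and 27.1 times in normal tongue.

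**Figure D2:**
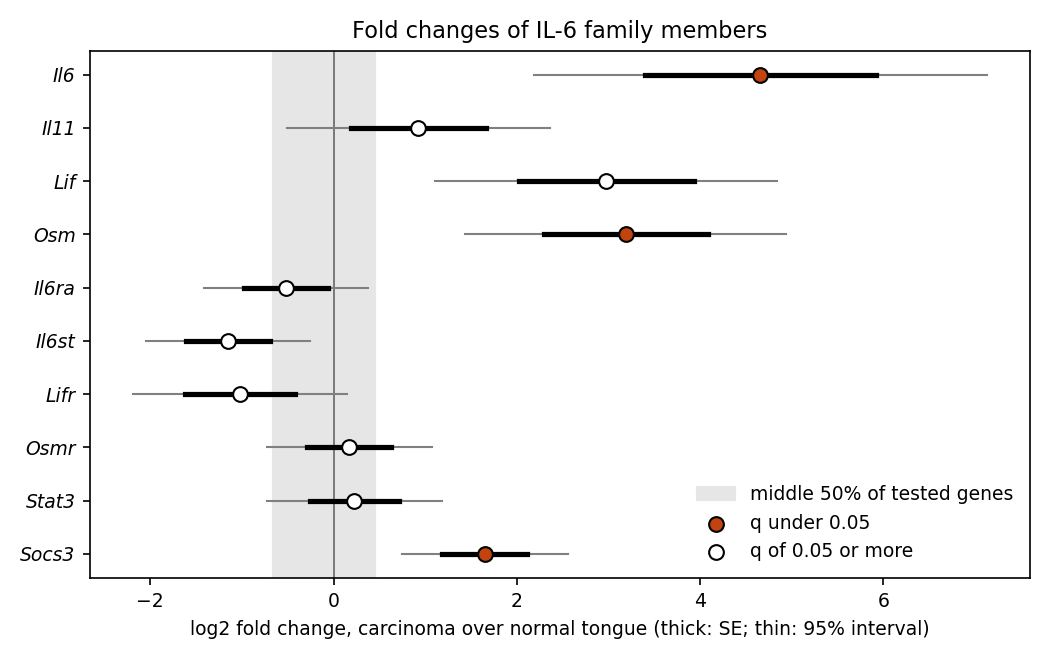
Log2 fold change of each member, carcinoma over normal tongue, with its SE (thick line) and 95% interval (thin line); filled points passed a deposited q of 0.05 and the grey band holds the middle 50% of tested genes, −0.66 to 0.46. Il6 (4.66), Osm (3.19) and Socs3 (1.65) are filled, and Il6st (−1.15), Lifr (−1.02) and Il6ra (−0.52) lie left of 0.

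Socs3 rose while Stat3 was not called. Socs3, the feedback inhibitor, was listed at 24.7 FPKM in carcinomas and 7.87 FPKM in normal tongue in the authors' deposited table, a 3.14-fold higher level (log2 fold change 1.65 ± 0.46, q = 0.0179). Its level stood at the 83.1st percentile of tested genes in carcinomas, against the 57.5th in normal tongue, and its gain of 16.9 FPKM was the largest of the 10 members. Stat3, which carries the signal to the nucleus, was at 33.6 FPKM in carcinomas and 28.7 FPKM in normal tongue in the authors' deposited table (0.23 ± 0.49, q = 1.00). The interval for Stat3, −0.72 to 1.18, excludes a change beyond 2.27-fold upwards. Socs3 stood at 0.736 of the Stat3 level in carcinomas and at 0.274 in normal tongue, a difference in log2 fold change of 1.42 ± 0.67 (95% interval 0.11 to 2.74). Phosphorylation of STAT3 is not measured by RNA sequencing.

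**Figure D3:**
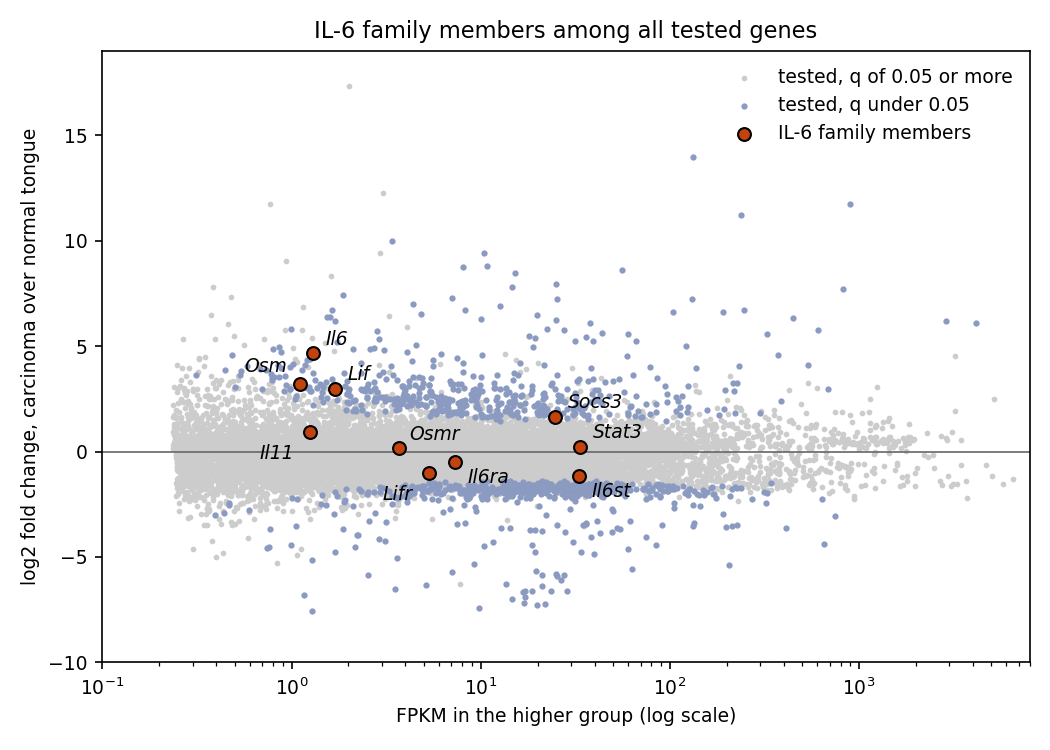
Log2 fold change against FPKM in the higher group (log axis) for all tested genes with a finite fold change; blue points passed a deposited q of 0.05 and the 10 members are labelled. Il6, Osm and Lif lie at 1.11 to 1.69 FPKM with fold changes above those of at least 98.2% of tested genes, whereas Socs3 lies at 24.7 FPKM.

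Of the 10 members, 4 lie on chromosome 11, and the loci given here are those of the deposited table, whose mouse build is not given in the sources used here. Osm (chromosome 11, 4136788 to 4141029) and Lif (4157571 to 4172517) are neighbours 16.5 kb apart, with no other row of the table between them. Osmr and Lifr are likewise neighbours on chromosome 15, 255 kb apart. Another 6 tested rows of the authors' deposited table lie within 100 kb of Osm and Lif. None was called, beside 6.26% over all tested genes, and their log2 fold changes ran from −0.44 to 1.13. Of these rows, Ccdc157, Rnf215 and Mir3060 share the same listed locus, and the SE of Mir3060 was 8.88. No other row's locus overlapped that of any member.

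Among the other ligands and receptors of the gp130 family, 1 gene rose. Of 8 tested genes, 1 was called (12.5%, beside 6.26% over all tested genes), and a further 5 had a row but were not tested. This was Clcf1, cardiotrophin-like cytokine factor, which signals through the CNTF receptor. Clcf1 was listed at 12.6 FPKM in carcinomas and 1.60 FPKM in normal tongue in the authors' deposited table (log2 fold change 2.97 ± 0.70, q = 0.0018), a higher level than any of the 4 ligands above. Cntfr, the receptor chain for CNTF and CLCF1, was at 2.77 FPKM in carcinomas and 11.8 FPKM in normal tongue (−2.09 ± 1.51, q = 1.00 in the authors' deposited table) and is named here after its values were seen. Il11ra1, the private IL-11 receptor and the most abundant gene of the list, had 17.1 FPKM in carcinomas and 34.7 FPKM in normal tongue in the authors' deposited table (−1.02 ± 0.52, q = 0.600). Over these 8 genes the median fold change was −0.45 on the log2 scale, and 6 were negative.

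The kinases and the other STATs showed no call. Of 9 tested genes for Janus kinases and STAT proteins, none passed, and their log2 fold changes lay between −0.75 and 0.86 with a median of −0.06. The most abundant were Stat6, which transmits IL-4 and IL-13 signals, at 27.7 FPKM in carcinomas and 24.7 FPKM in normal tongue, and Jak1, a kinase that binds gp130, at 19.9 FPKM in carcinomas and 20.3 FPKM in normal tongue in the authors' deposited table. Among 17 tested genes listed as negative regulators, 1 rose, a share of 5.88% that is near the 6.26% called over all tested genes. The list also holds Adam17, a protease gene that is not an inhibitor of the pathway and was not called. Socs1, a second SOCS inhibitor, best known for restraining interferon signals, was listed at 10.1 FPKM in carcinomas and 1.39 FPKM in normal tongue in the authors' deposited table (log2 fold change 2.86 ± 0.68, q = 0.00176). The other 16 were not called, among them the phosphatases Ptpn1, at 22.4 FPKM in carcinomas and 13.6 FPKM in normal tongue, and Ptpn11, at 20.2 FPKM in carcinomas and 26.7 FPKM in normal tongue in the authors' deposited table. The median of the 17 was −0.06.

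Several genes known to be induced through STAT3 were higher in the carcinomas. Of 20 tested members, the authors' deposited table had 6 higher and 0 lower calls, a share of 30% beside 6.26% over all tested genes, and the median log2 fold change was 1.10. The list was chosen with earlier results of these data known, so this share describes the list and is no test of the pathway. The 5 with the largest change were Birc5 (3.32 ± 0.66, q = 5.96e-05), Hif1a (3.11 ± 0.89, q = 0.0234), Il4ra (2.79 ± 0.51, q = 5.35e-06), Nfkbiz (2.77 ± 0.54, q = 4.14e-05) and Mmp9 (2.46 ± 0.63, q = 0.0054). The remaining one, outside the naming rule, was Bcl3 (2.20 ± 0.52, q = 0.00179). These genes have other known inputs: Birc5 is expressed in mitosis, Hif1a encodes the hypoxia factor, and Nfkbiz and Bcl3 encode regulators of NF-kB. The most abundant member in carcinomas, Junb, an AP-1 subunit, had 126 FPKM in carcinomas and 54.1 FPKM in normal tongue and was not called (1.22 ± 0.54, q = 0.376 in the authors' deposited table).

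Acute phase genes, which IL-6 induces in liver, showed 2 calls, both higher, among 14 tested members (14.3%, beside 6.26% over all tested genes). Their median log2 fold change was −0.10. When the deposited p-values were adjusted by the Benjamini-Hochberg method there were 4 calls, with Lcn2 and Serpina3n added. That adjustment raised the calls over all tested genes from 988 to 1420. Both calls by the deposited q were serum amyloid A genes. Saa3, a form made largely outside the liver, had 37.7 FPKM in carcinomas and 0.560 FPKM in normal tongue (6.07 ± 1.04, q = 1.06e-06), and Saa1 had 26.5 FPKM in carcinomas and 4.21 FPKM in normal tongue (2.65 ± 0.80, q = 0.0382 in the authors' deposited table). Saa1 and Saa2 are near-identical copies whose reads may be split between them, so the Saa1 value is uncertain. Genes known to induce Il6 and its relatives were called in 7 of 9 cases, all higher in carcinomas, beside 3.07% called higher over all tested genes. This list too was chosen with earlier results of these data known, so the share describes it and tests nothing. The largest fold changes were those of Il17f (7.40 ± 2.19), Il1b (5.79 ± 0.75), Areg (5.44 ± 0.74), Tnf (4.80 ± 0.92) and Ptgs2 (4.19 ± 0.65), with q-values of 0.0311 or less in the authors' deposited table. Those of Il17f and Tnf rest on low normal values of 0.0111 and 0.111 FPKM, against 1.88 and 3.08 FPKM in carcinomas. Hbegf and Il1a also rose. Il17a was listed at 1.38 FPKM in carcinomas and at 0 in normal tongue and did not pass (q = 0.101). With Benjamini-Hochberg adjustment Il17a passed, which made 8 calls. At a deposited q under 0.01 the count was 5, without Il17f and Il1a, and 571 over all tested genes.

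**Figure D4:**
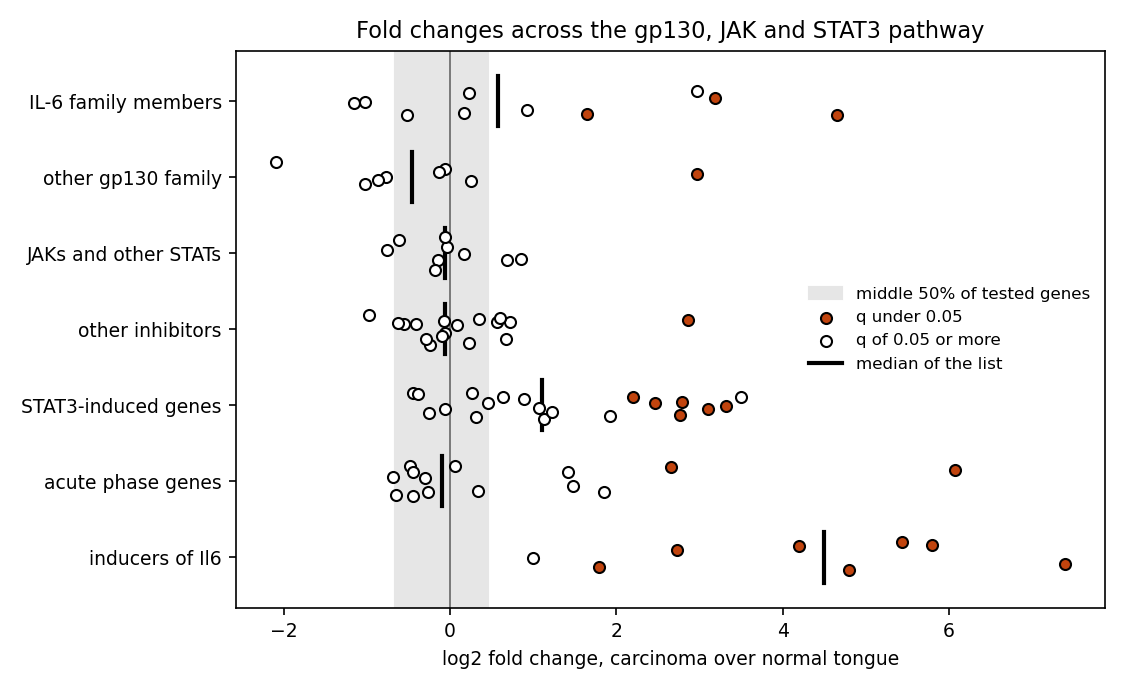
Log2 fold changes of the tested genes with a finite fold change in each list, carcinoma over normal tongue. Il17a, at 0 in normal tongue, is therefore not plotted. Filled points passed a deposited q of 0.05, black bars are list medians and the grey band holds the middle 50% of tested genes. The median is 4.50 for the 8 plotted inducers of Il6 and 1.10 for STAT3-induced genes. It is −0.06 both for kinases with other STATs and for the list of other inhibitors, which also holds Adam17. The lists were chosen with earlier results of these data known.

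Markers of several cell types also differed between the groups, and their part in the values above was not tested. In bulk tissue, fewer cells of a type and less RNA per cell cannot be told apart. Over all tested genes 3.07% were called higher and 3.19% lower, and 47.6% of those with a finite fold change were positive. Of 7 tested fibroblast markers, 2 fell and 6 had negative fold changes. Their summed level was 269 FPKM in carcinomas and 705 FPKM in normal tongue in the authors' deposited table. All 6 endothelial markers were negative and 1 fell, with sums of 39.9 FPKM in carcinomas and 82.2 FPKM in normal tongue. The median log2 fold changes of these lists were −1.19 and −1.05, beside −1.15 for Il6st, −1.02 for Lifr, −0.52 for Il6ra and 0.17 for Osmr. Of 5 tested skeletal muscle markers, 2 fell and all were negative, with a median of −1.60, and 4 others could not be tested because normal tongue is listed at 0 by a failed estimate.

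For the ligands, the markers of candidate source cells were mixed. Of 7 tested neutrophil markers, 2 rose, beside 3.07% called higher over all tested genes. These were S100a8 and S100a9, which activated keratinocytes also express. The other 5 ran from 0.166 to 10.2 FPKM in carcinomas and from 0.372 to 6.99 FPKM in normal tongue and were not called in the authors' deposited table. Their log2 fold changes ran from −1.17 (Mmp8) to 2.09 (Csf3r), and of all 7 markers 5 were positive and 2 negative. Of 8 macrophage markers none was called, 3 had positive and 5 negative fold changes, and their sum was 113 FPKM in carcinomas and 159 FPKM in normal tongue. Most of that sum was Lyz2, at 76.7 FPKM in carcinomas and 129 FPKM in normal tongue. The log2 fold changes ran from −1.64 for Cd163 (q = 0.161) to 1.64 for Cd14 (q = 0.0790). All 6 tested T-cell markers had positive fold changes and 1 rose by the deposited q, with sums of 7.10 FPKM in carcinomas and 1.69 FPKM in normal tongue. Deposited p-values of Cd3e (0.00163), Cd3d (0.00193) and Cd4 (0.00318) were below that of Il17a (0.00324). Il17a passed with Benjamini-Hochberg adjustment over all tested rows, so these 3 would pass it too. Those of Cd8a (0.0367) and Cd2 (0.340) were above it. The macrophage marker Cd14 (0.00233) and the endothelial marker Tek (0.00307) were also below it. All 6 tested epithelial markers were positive with a median of 1.19, and none was called. Their SEs ran from 0.45 (Epcam) to 2.38 (Krt5), which limited what could be called. A further epithelial marker, Krt14, could not be tested because carcinomas are listed at 0 by a failed estimate, against 750 FPKM in normal tongue. No tested marker of these lists was listed at 0 in either group.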

How the data were processed

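Poly(A) RNA from 3 carcinomas and 5 normal tongues was sequenced, and groups were taken from the sample titles. The authors' deposited table was the only file. FPKM values, 1 per gene and group, were computed by the authors, and that unit is read from the table's column layout, per the file headers. Each row of the deposited table also holds a log2 ratio (carcinoma over normal), a test score (statistic) of opposite sign, a p-value and a q-value. Per the submitters' processing notes, GSNAP 2011.11.17, edgeR and GRCh37, a human build, were named with no role; neither the program behind the table nor its mouse build is stated there.

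No new test between groups was made, because no values per sample are held. A gene was called where status was OK and the deposited q was under 0.05. The SE is the log2 fold change divided by the deposited statistic, and 95% intervals are normal intervals from it, covering only the error of the authors' test, whose source is not known. Whether the p-values reflect the spread between samples is likewise unknown. Where samples are not separate animals, they cannot stand for the spread between animals. Depth is unknown. Python 3.11.15, pandas 2.3.3 and scipy 1.17.1 were used, and the adjustment code was tested on simulated data. The alternatives were Benjamini-Hochberg adjustment, a stricter q, a filter at 1 FPKM, pseudocounts and re-centring. The members, gene lists and motifs were chosen with earlier results of these data known. The naming rule took all members and, of each other list, up to 5 called genes with the largest change and the 2 most abundant; 1 gene named by it is not reported here.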

Additional observations from a re-analysis of the deposited data

How the results depend on the processing

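The 3 members called at a deposited q under 0.05 became 4, with Lif added, after Benjamini-Hochberg adjustment over tested rows (Lif 0.0259 in place of 0.0641). Calls over all tested genes went from 988 to 1420 with that adjustment. The filter at 1 FPKM and the re-centring on the median each also used that adjustment in place of the deposited q, and gave the same 4 (Lif 0.0233 and 0.0236), so neither moved the count beyond the adjustment itself. Over all tested genes the filter gave 1397 calls and the re-centring 1358. At a deposited q under 0.01 the count of members was 0, with 571 calls over all tested genes. Acute phase calls numbered 2, against 4 with that adjustment, likewise 4 when the filter or the re-centring was added to it, and 1 at a deposited q under 0.01. The 3 members that differed at least 4-fold, Il6, Lif and Osm, became 0 with a pseudocount of 1 FPKM, which lowers the fold of genes near 1 FPKM by construction: log2 fold changes were then 1.13, 1.15 and 0.91. With 0.1 FPKM that of Il6 was 3.21. All 30 recomputed member fold changes kept their direction. Counts in the other 5 lists stayed within 1.5 times. No paired analysis was possible because the table holds 1 value per group, and for the same reason leaving out each replicate was not run. Depth is unknown, and SEs of 0.46 to 1.26 limited which member differences could be called.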
